A study of Homo sapiens with 4 samples.

Results

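SLBP, NPAT, CASP8AP2, LSM10, LSM11, ZNF473, ERI1 and CPSF3 encode factors that transcribe replication-dependent histone genes or form the 3′ ends of their mRNAs. These 8 genes were chosen by gene symbol out of 60605 genes in the annotation used for the deposited files, and all 8 were among the 22185 genes that passed the filter on low values and were tested. The cells were NIH-OVCAR3, an established line of high-grade serous ovarian carcinoma grown from ascites. All cultures received 100 ng/mL nocodazole, a microtubule poison that holds cells in mitosis, for 16 h and were then released into fresh medium for 3 h. They were next exposed for 24 h to the vehicle DMSO or to 1.7 µM etoposide, which traps topoisomerase on cut DNA and leaves double-strand breaks. The labels name no transfection, while the RNA methods of the study speak of transfected cells, and the labels were followed here. RNA of 2 libraries per group, labelled as biological replicates, was sequenced to ask how gene expression differed after DNA damage. The labels do not say whether the replicates were separate cultures, so p-values measure the spread between these libraries, which may be technical. Both groups are 1 cell line and both had been synchronized, so there was no unsynchronized or untreated library to compare them with.

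Replication-dependent histone mRNAs end in a conserved stem-loop instead of a poly(A) tail. NPAT and CASP8AP2 (also called FLASH) gather at the histone gene clusters in nuclear histone locus bodies, where NPAT acts as a coactivator once cyclin E and CDK2 have phosphorylated it. SLBP binds the stem-loop, and the U7 small nuclear ribonucleoprotein, whose ring holds LSM10 and LSM11 in place of a pair of spliceosomal Sm proteins, pairs with a purine-rich element behind it. ZNF473 (ZFP100) bridges SLBP and the U7 particle. CPSF3 (CPSF-73) is the nuclease that makes the cut, which it also makes in ordinary polyadenylated mRNAs, and ERI1 is an exonuclease that trims the end of the stem-loop and takes part in histone mRNA decay. Histone mRNAs are made in S phase and degraded when DNA synthesis stops.

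The sequence these factors act on is shown for the histone genes with the highest mean level in these libraries, H2BC12 at chr6:27146366-27146381 on the minus strand and H1-2 at chr6:26055744-26055759 on the minus strand (GRCh38). The capitals mark the 6-base arms of the stem that SLBP binds and the lower-case letters the 4-base loop.

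H2BC12: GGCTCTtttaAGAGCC

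H1-2: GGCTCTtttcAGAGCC

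The stem-loop began 37 bases after the stop codon of H2BC12 and 28 bases after that of H1-2. A paired stem and loop of this form lay within 100 bases after the annotated stop codon in 60 of 60 replication-dependent histone genes with an annotated stop codon and in 31 of 19859 other protein-coding genes (0.156%). The 60 genes held 10 forms of it, and the form of H1-2 was the commonest, in 34 genes. Histone genes were taken by the form of their symbol, so the other genes may include histone genes with different symbols.

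RefSeq promoter windows (GRCh38.p14, from 250 bases before to 50 after the transcript start) matched 6 of the 8 genes by symbol, all but ZNF473 and ERI1. NPAT and CASP8AP2 are shown because they had the largest log2 differences between the groups. The NPAT window is chr11:108222589-108222888 on the minus strand and the CASP8AP2 window is chr6:89829630-89829929 on the plus strand. Capitals mark matches on either strand to the CCAAT box or to an E2F motif, searched as TTTCCCGC, TTTCGCGC, TTTGCCGC or TTTGGCGC.

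NPAT: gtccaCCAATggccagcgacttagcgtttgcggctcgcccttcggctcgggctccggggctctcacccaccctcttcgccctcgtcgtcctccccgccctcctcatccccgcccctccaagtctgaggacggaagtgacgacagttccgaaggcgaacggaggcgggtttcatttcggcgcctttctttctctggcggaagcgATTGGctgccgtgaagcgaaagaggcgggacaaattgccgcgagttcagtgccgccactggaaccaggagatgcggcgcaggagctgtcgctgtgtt

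CASP8AP2: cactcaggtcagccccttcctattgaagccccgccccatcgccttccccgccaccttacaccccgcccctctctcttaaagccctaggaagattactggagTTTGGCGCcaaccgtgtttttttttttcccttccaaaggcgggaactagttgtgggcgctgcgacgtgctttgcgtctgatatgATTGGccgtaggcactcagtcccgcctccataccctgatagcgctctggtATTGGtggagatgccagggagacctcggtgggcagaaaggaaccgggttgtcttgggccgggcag

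CASP8AP2 held an E2F motif 149 bases before its start and CCAAT boxes 65 and 15 bases before it. NPAT held CCAAT boxes 245 and 47 bases before its start and none of the E2F words. The only other E2F match among the 6 genes was in CPSF3, 218 bases before its start, against 3.31% of all 35116 windows with a match. CCAAT was present in 3 of the 6 genes (LSM10 was the other) and in 34.6% of all windows, and the cell cycle homology region TTTGAA was present in LSM11 alone and in 15.2% of all windows. The SLBP window (chr4:1712270-1712569, minus strand) held none of these words. These matches describe letters in a window and not binding.

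Expression was read as FPKM, a fragment count divided by transcript length and library size, which can be set against each other between genes because it is per length. Mapped read pairs implied by coverage over FPKM, at 200 bases per pair, were 64473397 and 66500749 in DMSO and 47687126 and 58513480 in etoposide. These values are lower than the read clusters and alignment rates that the study reported would give. Between 13482 and 13627 genes reached 1 FPKM. All 7 markers of serous ovarian or epithelial cells were present, with PAX8 at 214 to 258 FPKM and WT1 at 22.0 to 23.7 FPKM, while none of 5 leukocyte markers reached 1 FPKM on average and their sum was 1.12 to 1.70 FPKM. The 5 fibroblast markers summed to 6.80 to 6.86 FPKM in DMSO and 7.99 to 8.19 FPKM in etoposide. Most of it was COL1A1 (4.36 to 6.11 FPKM) and COL1A2 (1.68 to 2.01 FPKM). LUM was at 0.359 to 0.469 FPKM, and DCN and COL3A1 were near 0. The 4 endothelial markers summed to 4.41 to 5.61 FPKM in DMSO and 5.06 to 5.16 FPKM in etoposide. Most of it was KDR (3.77 to 5.01 FPKM), with VWF at 0.524 to 0.915 FPKM and CDH5 and PECAM1 near 0. The part of these markers in the results was not tested. The summed epithelial markers were 2600 to 2945 FPKM in DMSO and 2024 to 2090 FPKM in etoposide. In RNA from bulk cultures, fewer cells that express a gene and less RNA of it per cell cannot be told apart. In limma on log2 FPKM values, no gene reached an adjusted p under 0.05 (0% of the 22185 genes tested, and 0% of 71340 transcripts). The smallest adjusted p of a gene was 0.169 (limma, Benjamini-Hochberg adjustment). The study's own count test (DESeq2), not repeated here, did select genes from these libraries at an adjusted p under 0.05 with a fold-change limit. Before adjustment, 1566 genes with a higher mean in etoposide (7.06%) and 1077 with a lower mean (4.85%) had a p under 0.05. Groups did not overlap, with both etoposide libraries above both DMSO libraries in 6407 genes (28.9%) and below them in 4214 genes (19.0%).

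Against that background, 7 of the 8 genes had a higher mean and 1 a lower mean in etoposide on the log2(FPKM + 0.1) scale. Both etoposide libraries were above both DMSO libraries in 6 of 8 genes, below them in LSM10 and mixed with them in CPSF3. As TPM, LSM10 overlapped (33.7 and 30.4 in DMSO, 29.7 and 30.9 in etoposide) and CPSF3 did not (82.1 and 87.6 in DMSO, 89.9 and 88.6 in etoposide). The log2 difference of CPSF3 as TPM was 0.073, below the median of 0.10 over all genes on that scale. The share of genes with no overlap was not counted for TPM. SLBP, NPAT, CASP8AP2 and ERI1 had an unadjusted p under 0.05, all 4 with a higher mean, and 0 of the 8 passed after adjustment (adjusted p from 0.342 to 0.978). The median log2 difference of the 8 genes was 0.31, beside 0.036 over all genes tested. The factors span a wide range of levels. CPSF3 (37.2 to 38.3 FPKM), SLBP (27.5 to 35.2 FPKM) and LSM10 (12.7 to 15.3 FPKM) did not overlap each other or the remaining 5 genes in any library. From ZNF473 through NPAT, CASP8AP2 and LSM11 to ERI1, each gene's range over the 4 libraries overlapped that of the next gene in order.

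**Figure D1:**
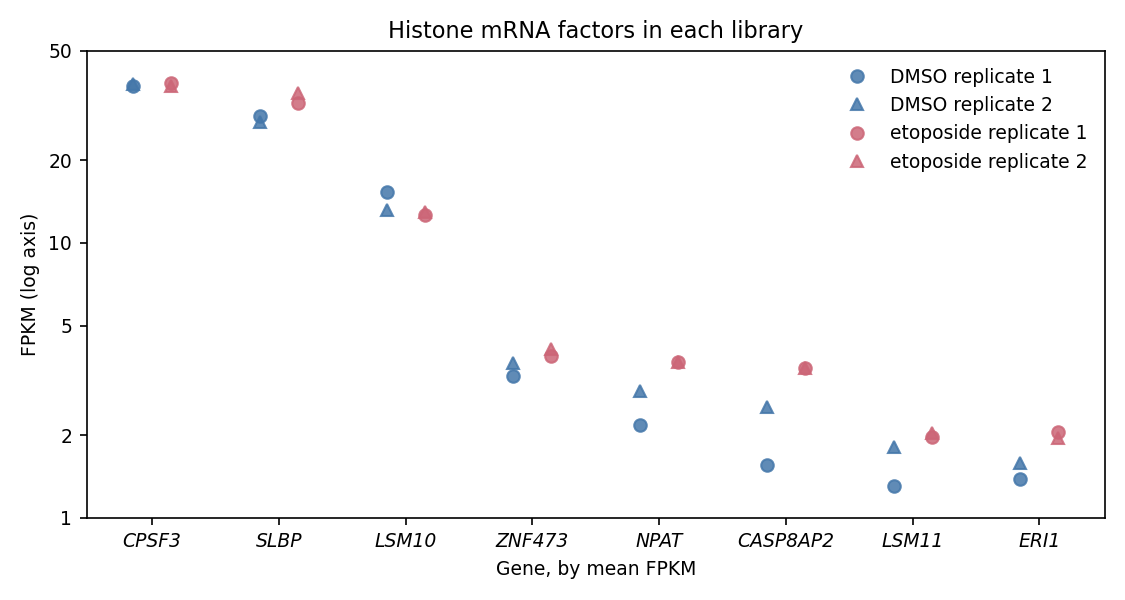
FPKM (log axis) of the 8 genes in each of the 4 libraries, ordered by mean level, with circles for replicate 1 and triangles for replicate 2. The etoposide libraries of NPAT lie together at 3.70 FPKM above DMSO libraries at 2.17 and 2.88 FPKM, while the 4 CPSF3 points lie between 37.2 and 38.3 FPKM.

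Of the transcription factors of the pathway, NPAT (ENSG00000149308, chr11:108157215-108222638, minus strand) was at 2.17 and 2.88 FPKM in DMSO and at 3.70 FPKM in both etoposide libraries. The etoposide libraries were alike and the DMSO libraries were not: their mean was 2.53 ± 0.504 (SD, n = 2) against 3.70 ± 0.000103 (SD, n = 2). The log2 difference was 0.55 (standard error 0.16), with an unadjusted limma p of 0.0137 and an adjusted p of 0.345. These levels rested on 825 to 1272 read pairs per library.

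CASP8AP2 (ENSG00000118412, chr6:89829894-89874436, plus strand), which holds LSM11 to the processing machinery and sits with NPAT in the histone locus body, showed the same arrangement. It was at 1.56 and 2.52 FPKM in DMSO and at 3.50 FPKM in both etoposide libraries, from 620 to 1218 read pairs. The log2 difference of 0.79 (standard error 0.22) was the largest of the 8 genes, with an unadjusted p of 0.0127 and an adjusted p of 0.342 in limma. For both genes DMSO replicate 1 was the low library. Without it the log2 difference was 0.35 for NPAT and 0.46 for CASP8AP2, with adjusted p values in limma of 0.261 and 0.214. Without DMSO replicate 2 it was 0.74 and 1.12, with adjusted p values of 0.0346 and 0.0333, in a fit that called 1344 of 22185 genes higher (6.06%) and 590 lower.

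SLBP (ENSG00000163950, chr4:1692731-1712344, minus strand), the stem-loop binding protein whose own protein level is largely confined to S phase in cycling cells, was at 28.9 and 27.5 FPKM in DMSO and at 32.3 and 35.2 FPKM in etoposide. Both etoposide libraries lay above both DMSO libraries, with means of 28.2 ± 1.02 and 33.7 ± 2.05 (SD, n = 2 each). The log2 difference was 0.26 (standard error 0.083, unadjusted p 0.0222, adjusted p 0.377 in limma). It rested on the most even DMSO libraries of the genes with p under 0.05, and was 0.29 without DMSO replicate 1 and 0.22 without DMSO replicate 2. Without etoposide replicate 1 it was 0.32 and without etoposide replicate 2 it was 0.19. With each library centred on its median it was 0.19, with an unadjusted limma p of 0.0896. With no trend in limma the unadjusted p was 0.0807. SLBP was above 91.2% of the genes tested in level.

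The U7-specific ring proteins were apart in level and in direction. LSM10 (ENSG00000181817, chr1:36391238-36397908, minus strand) was at 15.3 and 13.1 FPKM in DMSO and at 12.7 and 12.97 FPKM in etoposide, with a log2 difference of -0.15 (standard error 0.10, adjusted p 0.564 in limma). Its DMSO replicate 2 and etoposide replicate 2 were nearly level, and the log2 difference was -0.035 without DMSO replicate 1 and -0.26 without DMSO replicate 2. LSM11 (ENSG00000155858, chr5:157743712-157760709, plus strand), which carries the extension that CASP8AP2 binds, was at 1.31 and 1.80 FPKM in DMSO and at 1.97 and 2.04 FPKM in etoposide. Its log2 difference was 0.36 (standard error 0.18, adjusted p 0.455), and was 0.14 without DMSO replicate 1 and 0.58 without DMSO replicate 2. ZNF473 (ENSG00000142528, chr19:50025714-50053414, plus strand), the zinc finger protein of the U7 particle, was at 3.28 and 3.65 FPKM in DMSO and at 3.89 and 4.12 FPKM in etoposide, with a log2 difference of 0.20 (standard error 0.11, adjusted p 0.489), which was 0.13 without DMSO replicate 1. None of these 3 genes had an unadjusted p under 0.05.

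The nucleases also differed from each other. ERI1 (ENSG00000104626, chr8:9002147-9116746, plus strand), the exonuclease, had the lowest mean of the 8 genes, 1.74 FPKM beside 1.78 FPKM for LSM11. It was at 1.38 and 1.58 FPKM in DMSO and at 2.05 and 1.95 FPKM in etoposide, from 399 to 494 read pairs. Its log2 difference was 0.41 (standard error 0.14, unadjusted p 0.0254, adjusted p 0.386 in limma), and both etoposide libraries were above both DMSO libraries. CPSF3 (ENSG00000119203, chr2:9423651-9473101, plus strand), the endonuclease, was at 37.3 and 37.9 FPKM in DMSO and at 38.3 and 37.2 FPKM in etoposide, so the groups overlapped. Its log2 difference was 0.0062 with a standard error of 0.071 (adjusted p 0.978), and its sign changed with the scaling, from 0.0062 to -0.063 with each library centred on its median and to -0.073 after correction for transcript length and GC content.

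**Figure D2:**
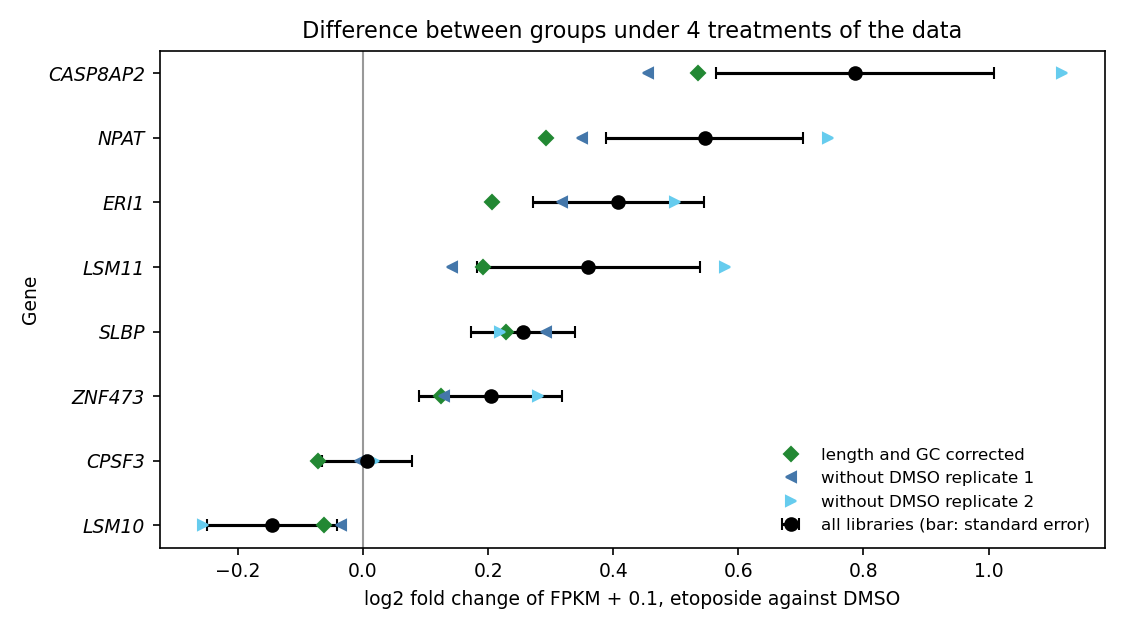
Log2 difference in FPKM + 0.1 between etoposide and DMSO for each of the 8 genes, with all libraries (black, bar 1 standard error), after correction for transcript length and GC content, and without either DMSO library. CASP8AP2 runs from 0.46 to 1.12 over the values shown and SLBP from 0.22 to 0.29.

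Transcript length moved with the spread between the DMSO libraries. DMSO replicate 2 exceeded replicate 1 in 6 of the 8 genes, and over all genes tested the Spearman correlation of that difference with transcript length was 0.32, against 0.017 for the difference between the etoposide libraries and 0.19 for the difference between the groups (across genes, which share their library and are not replicates). Mean transcript lengths, weighted by level, were 5939 bases for NPAT, 6052 for CASP8AP2 and 6567 for LSM11, and 1694 for SLBP, 866 for LSM10 and 2248 for CPSF3. After a loess correction of each library for length and GC content, the log2 difference was 0.54 for CASP8AP2, 0.29 for NPAT, 0.23 for SLBP, 0.21 for ERI1, 0.19 for LSM11, 0.13 for ZNF473 and -0.063 for LSM10. The median of the 8 genes was then 0.20, beside -0.0025 over all genes tested. In that fit 3 of the 8 genes had an unadjusted limma p under 0.05. The share of all genes under that p was not counted in the corrected fit, so this count stands without a background. The part of length in these differences was not tested.

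Coverage of single exons, scaled to the mapped read pairs of each library, showed where along each mRNA the libraries differed. In CASP8AP2 all 9 exons of the leading transcript had a higher mean in etoposide, and in 6 of them the groups did not overlap. DMSO replicate 1 was low mainly toward the 5′ end, with the log2 ratio of DMSO replicate 2 to replicate 1 at 2.50 in the second exon and 0.062 in the last exon. In that last exon, where the DMSO libraries were level, coverage was 0.340 and 0.355 in DMSO and 0.493 and 0.489 in etoposide. NPAT had the same form: 17 of 18 exons had a higher mean in etoposide, 15 with no overlap, and 1 exon lay apart in the other direction. Its last exon was at 0.299 and 0.330 in DMSO and at 0.400 and 0.435 in etoposide, while its second exon was at 0.182 and 0.515 in DMSO. The first exon of NPAT was an exception to the 5′ gap, at 0.213 and 0.246 in DMSO. In SLBP all 8 exons had a higher mean in etoposide, 6 with no overlap, and the DMSO libraries were level in most, with a median log2 ratio of 0.0043 between them, apart from the fourth exon (0.43) and the first (-0.16). A higher mean in etoposide was found in 7 of 7 exons of ERI1, 4 of 4 of LSM11 and 5 of 5 of ZNF473, in 0 of 2 of LSM10 and in 10 of 18 of CPSF3. In CPSF3 exons 1 to 8 were higher and exons 12 to 18 lower, with 5 exons apart upward and 4 downward. Its log2 ratio of etoposide to DMSO was 0.037 in the first exon and -0.25 in the last. The log2 ratio of DMSO replicate 2 to replicate 1 was 0.41 and -0.32 in the same exons. The share of exons with no overlap was not counted over all genes, so these counts stand without a background. By the same rule, 28.9% of all genes tested had both etoposide libraries higher and 19.0% both lower. Exons of 1 gene share their mRNA and are not replicates, and the part of 5′ coverage in the gene totals was not tested.

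**Figure D3:**
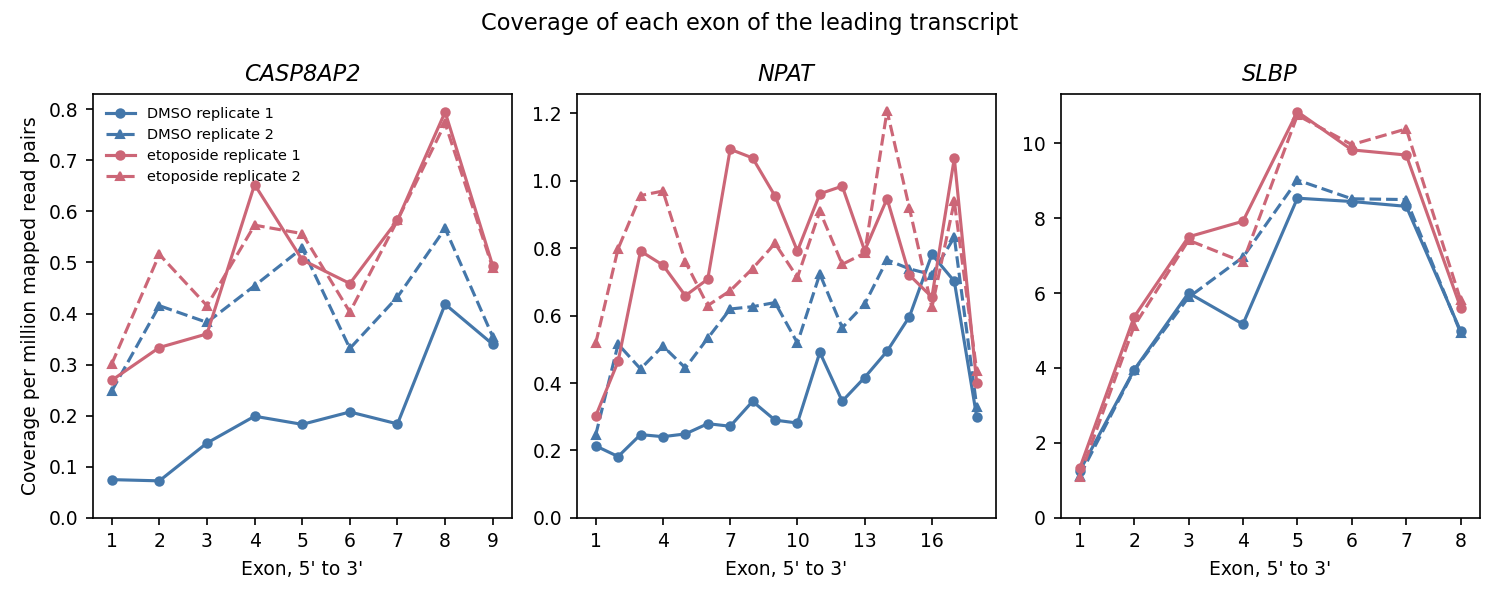
Coverage of each exon of the leading transcript, scaled to its mapped read pairs as the axis states, in 5′ to 3′ order for CASP8AP2, NPAT and SLBP, with a line per library. DMSO replicate 1 falls away from DMSO replicate 2 toward the 5′ end of CASP8AP2 and NPAT, except in the first exon of NPAT (0.213 and 0.246). The second exon of CASP8AP2 is at 0.072 and 0.415. The DMSO lines of SLBP lie close except at the fourth exon, at 5.17 and 6.96.

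The transcript models of SLBP traded places between libraries of the same group. ENST00000489418 (1810 bases) was at 7.39 and 23.7 FPKM in DMSO and at 27.1 and 9.26 FPKM in etoposide, and ENST00000318386 (1635 bases) was at 20.7 and 0.445 FPKM in DMSO and at 0.819 and 21.7 FPKM in etoposide. These models share 1614 bases, and 196 and 21 bases are found only in the first and only in the second. The split between models differed more between replicates than between groups, while the sum of both models was 28.1 and 24.2 FPKM in DMSO and 28.0 and 30.9 FPKM in etoposide. CASP8AP2 was divided between ENST00000551025, at 1.09 and 1.01 FPKM in DMSO and 1.86 and 2.59 FPKM in etoposide, and ENST00000237177, at 0.440 and 1.36 FPKM in DMSO and 1.40 and 0.699 FPKM in etoposide. The first had a log2 difference of 1.00 (adjusted p 0.775 over 71340 transcripts in limma) and the second overlapped between groups. NPAT was almost all ENST00000278612, at 2.06 and 2.81 FPKM in DMSO and 3.60 and 3.53 FPKM in etoposide.

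**Figure D4:**
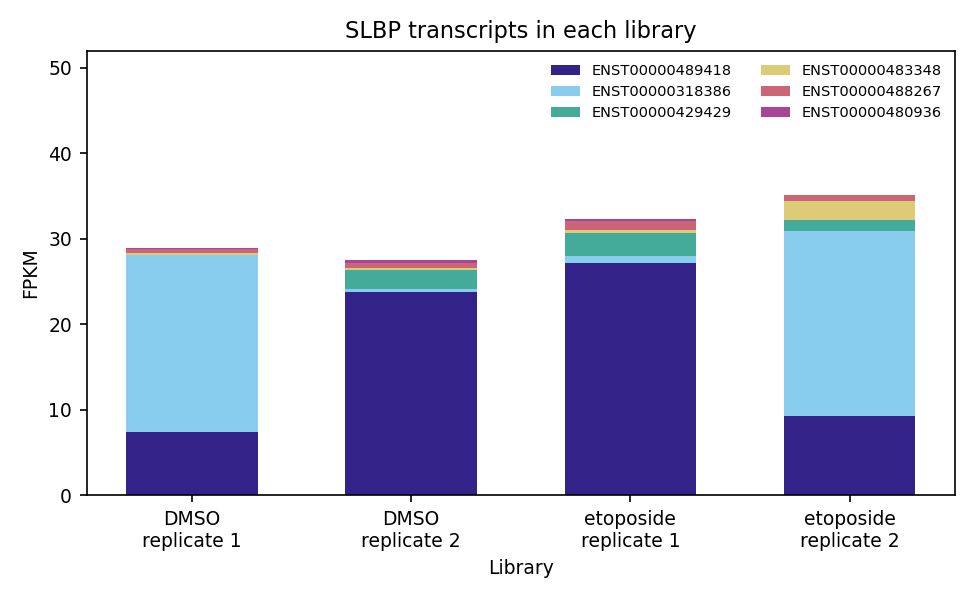
FPKM of the 6 SLBP transcripts stacked in each library. The height of the bars is the gene total, 27.5 to 35.2 FPKM, and the dark blue and light blue models exchange most of it between replicates of the same group.

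Other genes of the pathway were counted by role, each list beside the 0.036 median of all genes tested, and none of their genes passed after adjustment. Of all genes tested, 7.06% had an unadjusted p under 0.05 with a higher mean and 4.85% with a lower mean. Of 5 genes that act in histone gene transcription, 4 had a higher mean and 2 had an unadjusted p under 0.05, both higher, with a list median of 0.10. That median changed sign, to -0.042 after the length and GC correction and to -0.031 without DMSO replicate 1, and was 0.22 without DMSO replicate 2 and 0.23 without etoposide replicate 1. The genes with p under 0.05 were CDK2, the kinase that phosphorylates NPAT, at 18.9 and 19.3 FPKM in DMSO and 24.8 and 25.4 FPKM in etoposide (log2 difference 0.39), and its partner CCNE1 at 54.3 and 54.6 against 62.0 and 64.1 FPKM (log2 difference 0.21). Of 10 partners in histone mRNA cleavage, 7 had a higher mean and 1 an unadjusted p under 0.05, with a median of 0.066 that turned to -0.024 after the correction and -0.0033 with centring. The gene with p under 0.05 was CSTF2 (CstF-64), at 15.3 and 15.8 FPKM in DMSO and 18.2 FPKM in both etoposide libraries, and the next by p was the cap-binding protein gene NCBP1, at 10.2 and 12.4 against 13.2 and 13.2 FPKM (log2 difference 0.23, and 0.051 after the correction). The 5 Sm proteins that the U7 ring shares with spliceosomal particles had a median of 0.031 and none with p under 0.05, and the median was 0.10 without DMSO replicate 1, -0.0073 without DMSO replicate 2, -0.038 with centring and -0.0032 after the correction. SNRPE was at 58.6 and 51.2 FPKM in DMSO and 60.9 and 59.0 FPKM in etoposide, and SNRPD3 at 64.0 and 62.9 against 66.9 and 68.1 FPKM.

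Of 6 genes listed for the turnover or modification of SLBP protein, 2 had a higher and 4 a lower mean, with a median of -0.065 (0.0020 with TPM, -0.11 without DMSO replicate 1 or etoposide replicate 1, -0.018 without DMSO replicate 2 and -0.017 without etoposide replicate 2). CCNF, the F-box cyclin that targets SLBP for degradation, was at 9.23 and 8.94 FPKM in DMSO and 7.08 and 6.75 FPKM in etoposide (log2 difference -0.39, unadjusted p 0.0057, adjusted p 0.308 in limma). CDK1, whose kinase activity marks SLBP for degradation at the end of S phase, was at 29.4 and 32.8 against 38.3 and 37.4 FPKM (log2 difference 0.28). Of 15 genes of histone mRNA translation and decay, 9 had a higher mean and the median was 0.039 (-0.030 with centring, 0.059 without DMSO replicate 1, 0.0999 without DMSO replicate 2 and 0.063 without etoposide replicate 2). MIF4GD (SLIP1), which links SLBP to translation initiation, was the single gene with p under 0.05 and was lower, at 6.67 and 5.95 FPKM in DMSO and 5.15 and 4.90 FPKM in etoposide. The exosome nuclease DIS3 was at 4.24 and 5.27 against 5.79 and 6.10 FPKM (log2 difference 0.33, and 0.050 after the length and GC correction). Of 11 genes of general cleavage and polyadenylation, which share CPSF3, 6 had a higher mean and 3 an unadjusted p under 0.05, all higher, with a median of 0.013. It was -0.022 after the correction, -0.056 with centring, 0.086 and 0.14 with DMSO replicates 1 and 2 left out in turn, and 0.0019 and 0.037 with etoposide replicates 1 and 2 left out. Among these genes PCF11 was at 7.48 and 8.29 FPKM in DMSO and 9.88 and 9.17 FPKM in etoposide, and CPSF7 at 47.0 and 48.0 against 54.4 and 53.2 FPKM. In Integrator, whose nuclease INTS11 is a paralog of CPSF3, the median of 3 genes was -0.077 (-0.0099 with TPM, -0.0035 without DMSO replicate 1 and -0.050 without DMSO replicate 2), with INTS11 at 76.0 and 78.9 FPKM in DMSO and 74.3 and 72.5 FPKM in etoposide and INTS9 at 9.11 and 8.01 against 8.02 and 7.97 FPKM.

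The targets of the pathway lay in the other direction from most of its factors. Of 62 replication-dependent histone genes 54 passed the filter, 47 of them with a lower mean in etoposide and 7 with a higher mean, and their median log2 difference was -0.42 (-0.38 after correction for length and GC content, -0.24 with a pseudocount of 1). In 30 of the 54 genes the groups did not overlap with etoposide lower, beside 19.0% of all genes tested. In 1 gene they did not overlap with etoposide higher, beside 28.9%. An unadjusted p under 0.05 was found in 26 genes, all lower, beside 4.85% of all genes tested, and none passed after adjustment. H2BC12 was at 157 and 140 FPKM in DMSO and 85.6 and 86.0 FPKM in etoposide (log2 difference -0.79), and H1-2 was at 102 and 86.3 against 53.6 and 58.0 FPKM (log2 difference -0.75). Histone genes are near-identical copies in part, so reads may have been divided between them by the aligner and the values of single genes are uncertain. Whether the mRNA was selected by its poly(A) tail is not given in the sources used here.

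**Figure D5:**
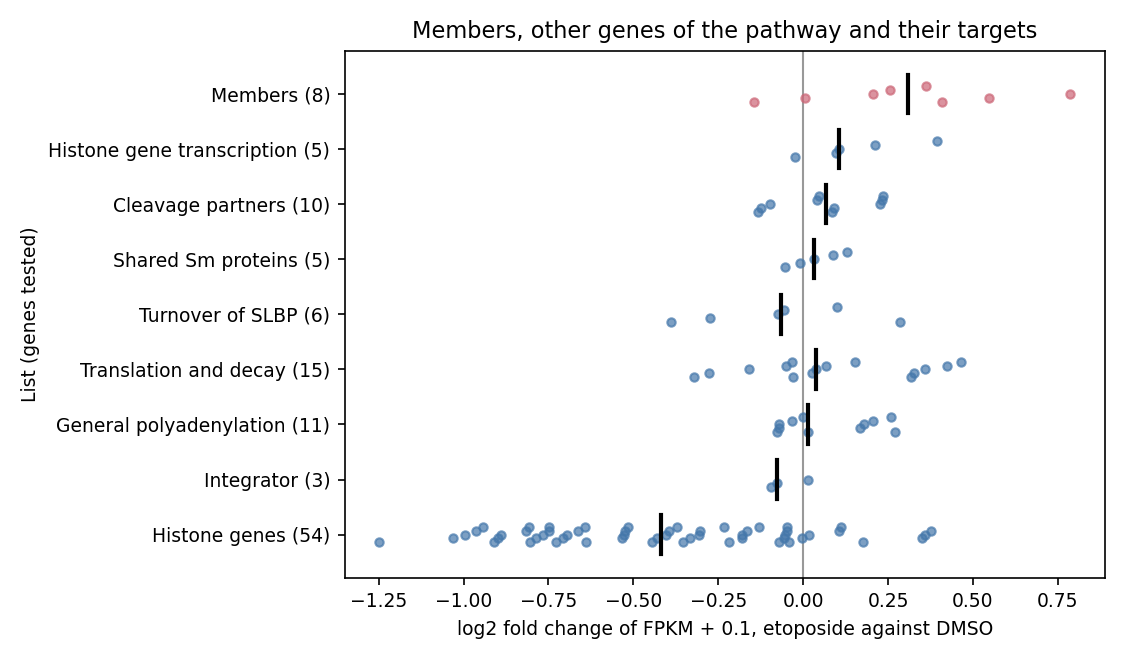
Log2 difference in FPKM + 0.1 between etoposide and DMSO of every tested gene in the 8 histone mRNA factors, the other lists of the pathway and the histone genes, with a black bar at each median. The bar of the 8 factors is at 0.31 and that of the 54 histone genes at -0.42.

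The annotated 3′ ends of histone transcripts were divided at 50 bases past the stem-loop, a limit chosen after the values were seen, so these sums are a description. The 42 transcripts annotated to end at the stem-loop summed to 288 and 255 FPKM in DMSO and 161 and 164 FPKM in etoposide. H2BC12 and H1-2 made most of these sums. The class is set by the annotated end and not by where reads end, so it does not measure RNA cut by CPSF3. Transcripts that end further on summed to 192 and 183 FPKM in DMSO and to 133 and 132 FPKM in etoposide, over 39 transcripts of 24 genes. The share of the longer class was 39.9% and 41.8% in DMSO and 45.2% and 44.6% in etoposide, and both classes were lower in etoposide. The classes hold mostly different genes, so the shares compare genes and not the ends of 1 gene. In the 6 genes with transcripts in both classes, those that end at the stem-loop reached at most 1.77 FPKM. Median log2 differences were close, -0.37 for tested transcripts that end at the stem-loop and -0.36 for those that end past it. StringTie assigned reads to these overlapping models, so the shares depend on that assignment.

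Divergent neighbours, protein-coding genes on the other strand whose start lies within 1000 bases, were found for 4 of the 8 genes. NPAT shares its promoter region with ATM, the double-strand break kinase, with 406 bases between the gene extents and 72 bases common to the RefSeq windows. ATM was at 2.54 and 4.06 FPKM in DMSO and 4.15 and 4.54 FPKM in etoposide (log2 difference 0.42, standard error 0.22, adjusted p 0.466 in limma), and its log2 difference after correction for length and GC content was 0.13. As in NPAT, the low library was DMSO replicate 1. The other neighbours had smaller differences, each with an unadjusted p over 0.05: TACC3, 514 bases from SLBP, had a log2 difference of -0.10, VRK3, which overlaps ZNF473, of -0.071, and ITGB1BP1, 123 bases from CPSF3, of 0.074.

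Genes with the most similar pattern to SLBP and NPAT were found by the Euclidean distance of centred log2 values over the 4 libraries, among 13558 candidates. Closest to SLBP were ENSG00000260920, which has no name in the files (distance 0.019), and STAMBPL1, a deubiquitinase (0.027). Closest to NPAT were B4GALT6, a galactosyltransferase (0.021), at 1.21 and 1.61 FPKM in DMSO and 2.12 and 2.11 FPKM in etoposide, and GNB4, a G protein subunit (0.029). With 4 libraries many genes come close: 147 lay within a distance of 0.1 of SLBP and 58 within 0.1 of NPAT.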

How the data were processed

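RNA of 4 OVCAR3 libraries was prepared with a stranded mRNA kit and sequenced as pairs of 100-base reads. Per the study's methods and the file headers, HISAT2 and SAMtools were used by the authors to align and sort reads on GRCh38, and StringTie 2.1.7 was run on the Ensembl 104 annotation with no strand option in its command, so reads of overlapping antisense genes may not be separated. The deposited files give FPKM, TPM and coverage per transcript and exon, and no counts, so the count test of the study (DESeq2) was not repeated.

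FPKM was summed over the transcripts of each gene and tested as log2(FPKM + 0.1) with limma 3.58.1 (R 4.3.3; trend, robust), for genes whose mean FPKM reached 0.1, with p-values adjusted by Benjamini-Hochberg across every gene tested. A fold change on this scale understates that of low genes. Transcripts were tested likewise. Mapped read pairs were derived from coverage, FPKM and 200 bases per pair, and cover counting depth only. Stem-loops were searched after GENCODE 44 stop codons, and promoter windows came from RefSeq.

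The 8 genes, the pathway lists and the tests were chosen with earlier results of these data known. Named were the 8 genes, from each list the 2 genes of smallest p, the 2 histone genes of highest level, divergent neighbours, and the 2 genes closest to SLBP and to NPAT. Alternatives were the pseudocount (1 or 0.01), the filter, TPM, median centring, no trend, a replicate block, a loess correction (span 0.3) for GC content and length, and leaving out each library.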

Additional observations from a re-analysis of the deposited data

How the results depend on the processing

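With 13 alternatives for each of the 8 genes, 98 values kept their direction and their side of the threshold and 6 did not. NPAT (0.74) and CASP8AP2 (1.12) passed without DMSO replicate 2, where the lone DMSO library is assumed to vary like the etoposide libraries. CPSF3 turned to -0.063 with centring and -0.073 with the length and GC correction, and lay between -0.015 and 0.027 with a library left out (negative without DMSO replicate 1, -0.0052, and etoposide replicate 1). The median of the 8 genes stayed between 0.20 and 0.39. Over all genes, 0 were called in either direction, against 2 higher and 2 lower with no filter and 0 higher and 6 lower with the length and GC correction. With a library left out, 3 to 1344 genes were called higher and 2 to 590 lower, the most without DMSO replicate 2. Leaving out 1 library reversed the transcripts ENST00000238112 of CPSF3 (-0.020 to 0.029, negative without DMSO replicate 1, -0.0059, and etoposide replicate 1), ENST00000489418 (-0.58 to 1.09, negative without DMSO replicate 1 and, at -0.51, etoposide replicate 1), ENST00000318386 (-2.22 to 3.04, negative without DMSO replicate 2 and, at -1.87, etoposide replicate 2) and ENST00000429429 (-0.24 to 4.30, negative without DMSO replicate 1) of SLBP, and ENST00000270617 of ZNF473 (-0.10 to 0.84, negative without DMSO replicate 1). The cause was not tested.

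Deviations of same-numbered libraries from their group means had a Pearson correlation of 0.013 over 22185 genes. The labels name no pairing, and this correlation cannot show whether libraries of the same number were handled together. With the replicate number as a block, 0 genes were called higher and 0 lower, and SLBP, NPAT and CASP8AP2 had adjusted p values of 0.380, 0.257 and 0.219 in limma. The 2 libraries per group, and values given without read counts, limit the precision.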
